A study of Mus musculus with 12 samples.

Results

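Rhbg and 9 genes of the hepatocytes around the central vein were followed in mouse liver: the ammonium and glutamine genes Rhbg, Glul, Slc1a2 and Oat, and the Wnt target genes Axin2, Lgr5, Tbx3, Rnf43, Znrf3 and Nkd1. Members were found by their gene symbol in the platform annotation, and all 10 were measured, out of 19938 genes with a single symbol. The group was chosen by its theme and by the intensity difference of Rhbg between the genotypes, measured on these same arrays. The genotype differences of all 10 members are therefore given as descriptions without a test.

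Livers came from 12 male C57BL/6J mice that were fasted for 24 h and then refed for 6 h. The first group of 6 was wild type (WT), and the other 6 carried the knock-in allele K289R of LRH-1, the nuclear receptor encoded by Nr5a2, in which a lysine is replaced by an arginine. Each mouse gave 1 Affymetrix array, and both groups shared strain, sex, tissue and feeding. The study compares the genotypes in the refed state, so an effect of refeeding itself was not measured here.

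Hepatocytes of the liver lobule differ by their position between the portal tract and the central vein. Endothelial cells of the central vein secrete Wnt ligands and R-spondin, which stabilise beta-catenin in the neighbouring hepatocytes and switch on the pericentral genes. Those hepatocytes take up the ammonium that escapes the periportal urea cycle and fix it into glutamine. Axin2, Lgr5, Rnf43, Znrf3 and Nkd1 are switched on by the same signal and also act on it, most of them as brakes.

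Values are summarized intensities in linear units, 1 per gene and array, from the probe set with the highest mean. Medians of the 12 arrays lay between 26.8 and 29.2, and all 10 members were above the typical array median on every array. Intensities of different genes depend on their probes and are not set against each other. The hepatocyte marker list had a mean log2 intensity of 12.1 to 12.2 in both groups, with all 9 measured markers above the array median. In whole liver, fewer cells of a type and less RNA per cell cannot be told apart. Some arrays stood apart: K289R 1 and K289R 3 carried pancreatic acinar transcripts (list means of 7.93 and 8.36 on the log2 scale, against 3.99 to 4.30 on the other arrays), and WT 1 and WT 3 had the highest acute phase means (10.1 and 10.2, against 8.78 to 9.06 on the other WT arrays). Among the K289R arrays, K289R 4 (9.41) and K289R 3 (9.22) had the highest acute phase means. WT 1 and K289R 3 also carried skeletal muscle transcripts (list means of 6.90 and 5.71, against 4.31 to 4.70 on the other arrays). The difference of each member is therefore also given without 4 arrays, WT 1, WT 3, K289R 1 and K289R 3.

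Promoters from RefSeq (build GRCm38.p6) were at hand for 6 of the 10 members, in 7 entries that span 250 bases before to 50 after a gene start: Glul, Slc1a2, Oat, Axin2, Rnf43 and Nkd1. Rhbg, Lgr5, Tbx3 and Znrf3 had no entry. Both strands were searched for CTTTGAT and CTTTGAA, letters that TCF/LEF factors of the Wnt pathway recognise, and for CAAGGTC and CAAGGCC, letters that LRH-1 recognises. The stretches below are shown because they are the only member promoters that held any of these letters, which stand in capitals; each is written on the strand of its gene.
Slc1a2: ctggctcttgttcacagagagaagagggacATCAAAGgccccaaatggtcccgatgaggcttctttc
Oat: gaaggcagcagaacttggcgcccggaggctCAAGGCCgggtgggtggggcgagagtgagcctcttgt
Rnf43: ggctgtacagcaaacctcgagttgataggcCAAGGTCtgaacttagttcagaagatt
The Slc1a2 stretch is chr2:102706201-102706267 on the plus strand, with CTTTGAT read on the opposite strand, beginning 207 bases before the start. The Oat stretch is chr7:132576447-132576513 on the minus strand, with CAAGGCC 85 bases before the start. In Rnf43 the letters CAAGGTC lay 27 bases before the start of 1 of its 2 entries, within chr11:87699840-87699896 on the plus strand. Among all 32851 promoter entries, 3.73% held CTTTGAT, 5.14% CTTTGAA, 3.96% CAAGGTC and 6.19% CAAGGCC, so 1 or 0 matches per motif among 7 entries is a description of these letters and not of binding.

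Rhbg was the member that stood out. It encodes a membrane channel of the Rh family that carries ammonium and ammonia, found on pericentral hepatocytes. Its intensity spanned 67.2 to 101 in WT (median 82.1) and 217 to 289.6 in K289R (median 257). The lowest K289R array was well above the highest WT array, so the groups did not overlap. The WT mean was 84.5 ± 11.9 and the K289R mean 254 ± 32.9 (SD, n = 6 each), a log2 difference of 1.59 (SE 0.10), or 3.01-fold. By size this was number 14 among the 19938 genes. Acinar genes carried by K289R 1 and 3, with differences up to 1.98, were among those ranked above it. Relative to the mean the spread between mice was alike in the groups, with coefficients of variation of 14.0% in WT and 13.0% in K289R. The difference was as large without the arrays that stood apart: 1.61 (SE 0.12) without K289R 1 and 3, 1.51 (SE 0.11) without WT 1 and 3 and 1.52 (SE 0.12) without all 4.

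**Figure D1:**
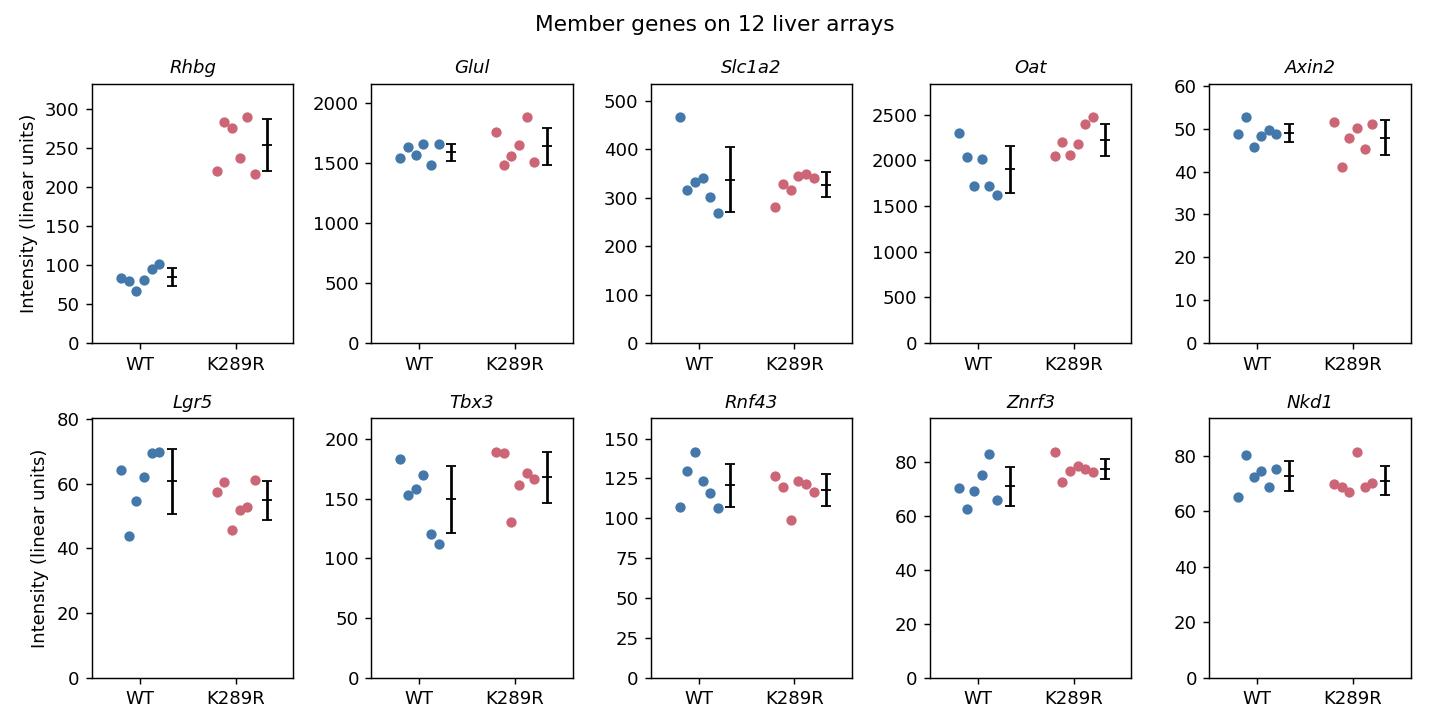
Intensity in linear units (vertical axes, each from 0) of the 10 members on 6 WT (blue) and 6 K289R (red) arrays, with points in the order of the replicate numbers and black bars for mean ± SD. The groups are apart for Rhbg, from 67.2 to 101 against 217 to 289.6, and overlap for the other 9 genes.

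Glul, glutamine synthetase, joins ammonium to glutamate and is the classical marker of the hepatocytes next to the central vein. Its intensity spanned 1487 to 1660.3 in WT (median 1603) and 1486 to 1883 in K289R (median 1609). The lowest arrays of the groups were nearly equal, and 2 K289R arrays lay above the highest WT array. Means were 1593 ± 70.8 and 1643 ± 155 (SD, n = 6 each), a log2 difference of 0.04 (SE 0.07). It was 0.01 without the 4 arrays that stood apart and -0.00053 without K289R 5. A second Glul probe set spanned 569 to 729.6 in WT and 676 to 807 in K289R, with a log2 difference of 0.15. Its means were 651 ± 59.6 and 721 ± 47.0 (SD, n = 6 each). With the mean of all Glul probe sets the log2 difference was 0.10 (SE 0.07). The groups overlapped on both probe sets.

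Slc1a2 encodes the glutamate transporter GLT-1, which brings the substrate of glutamine synthetase into the cell. It spanned 269 to 466 in WT (median 324) and 280.4 to 350.2 in K289R (median 336). A single array, WT 1, set the upper end of WT, and every K289R value lay inside the WT range. The log2 difference was -0.03 (SE 0.11), from means of 338 ± 67.9 and 327 ± 26.1 (SD, n = 6 each). It was 0.07 without WT 1, 0.01 with equal array medians and 0.16 without the 4 arrays that stood apart, so its sign depended on the arrays and the scaling.

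Oat, ornithine aminotransferase, moves the amino group of ornithine onto 2-oxoglutarate and so yields glutamate in the pericentral cells. Its intensity spanned 1619 to 2304 in WT (median 1869) and 2048 to 2472 in K289R (median 2188). All 6 K289R arrays exceeded the WT median, and 2 exceeded the highest WT array, so the ranges overlapped. Means were 1903 ± 260.0 and 2225 ± 174 (SD, n = 6 each), with a log2 difference of 0.23 (SE 0.09), the second largest of the members. It was 0.33 (SE 0.10) without the 4 arrays that stood apart.

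Among the Wnt targets, Axin2 encodes a scaffold of the complex that marks beta-catenin for destruction and is a widely used readout of Wnt signalling. It spanned 45.8 to 52.6 in WT (median 48.8) and 41.1 to 51.6 in K289R (median 49.1). The medians nearly coincided, and 2 K289R arrays fell below the lowest WT array. Its log2 difference was -0.04 (SE 0.07), from means of 49.0 ± 2.20 and 47.9 ± 4.08 (SD, n = 6 each), and it was -0.09 without the 4 arrays. Nkd1, which binds Dishevelled and dampens the pathway, spanned 65.1 to 80.4 in WT (median 73.4) and 67.2 to 81.4 in K289R (median 69.4). Of the K289R arrays 1 exceeded the WT median of Nkd1, and it also exceeded the highest WT array, so the ranges overlapped. The log2 difference of Nkd1 was -0.03 (SE 0.07), from 72.7 ± 5.36 and 71.1 ± 5.18 (SD, n = 6 each), and it was -0.05 without the 4 arrays and -0.07 without WT 1 and 3. With equal array medians both differences were near 0 (Axin2 0.00040, Nkd1 0.0040).

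Rnf43 and Znrf3 encode related membrane ubiquitin ligases that remove Frizzled receptors from the cell surface. Rnf43 spanned 106.7 to 141 in WT (median 119.6) and 99.1 to 127 in K289R (median 120.5). Its medians lay close together, and its log2 difference was -0.03 (SE 0.08). Its sign turned with equal array medians (0.0049), without WT 3 (0.01), without K289R 3 (0.02), without K289R 1 and 3 (0.00085) and without the 4 arrays (0.02). Znrf3 spanned 62.5 to 82.8 in WT (median 69.7) and 72.3 to 83.5 in K289R (median 77.0). All 6 K289R arrays exceeded the WT median of Znrf3, and 1 exceeded the highest WT array. The log2 difference of Znrf3 was 0.13 (SE 0.07), from 70.9 ± 7.21 and 77.4 ± 3.65 (SD, n = 6 each), and 0.10 without the 4 arrays.

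Lgr5 encodes the R-spondin receptor that marks pericentral hepatocytes and keeps RNF43 and ZNRF3 away from Frizzled. It spanned 43.9 to 69.8 in WT (median 63.3) and 45.7 to 61.3 in K289R (median 55.2). No K289R array exceeded the WT median of Lgr5, but none fell below the lowest WT array, WT 2. The log2 difference of Lgr5 was -0.13 (SE 0.11), and it ran from -0.22 without WT 2 to -0.08 without K289R 3 when 1 array was left out. Without the 4 arrays it was -0.10. Tbx3, a T-box repressor induced by beta-catenin in liver, spanned 112 to 183 in WT (median 156) and 130.6 to 189 in K289R (median 169). WT 5 and WT 6 were the lowest arrays for Tbx3, and 5 of 6 K289R arrays lay above the WT median. Its log2 difference was 0.18 (SE 0.12), and it was 0.33 (SE 0.13) without the 4 arrays that stood apart. With 1 array left out it ran from 0.10 without WT 6 to 0.25 without K289R 3.

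Over the 10 members, 1 was called, Rhbg, and 9 were not. Calls were made by limma at a Benjamini-Hochberg adjusted p under 0.05 over all genes, which 0.572% of genes passed. The groups did not overlap for the same gene alone, against 1.24% of all genes. Since Rhbg was listed with this comparison known, nothing is read from these counts. The other 9 had log2 differences from -0.13 to 0.23 with standard errors of 0.07 to 0.12, 4 of them above 0; with equal array medians 8 of them were above 0. The median over the 10 members was 0.01, and over all genes it was -0.01. Of the 6 Wnt targets, 2 had a positive difference, and 5 with equal array medians, so these tallies depend on the scaling. Over all genes 46.0% of differences were positive, and with equal array medians 11744 of 19938. Small differences of these 9 genes are not excluded at this precision.

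**Figure D2:**
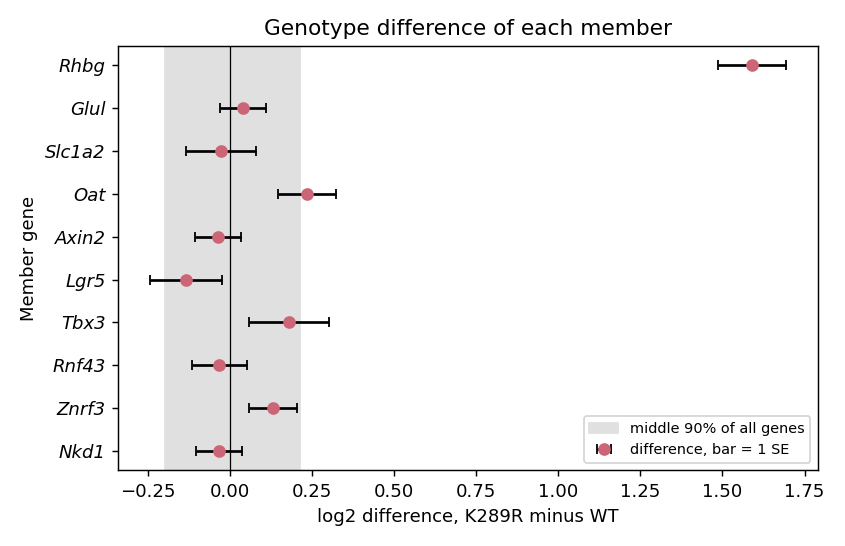
The log2 difference, K289R minus WT, of each member (horizontal axis) with a bar of 1 SE on either side; the grey band runs from the 5th to the 95th percentile of all genes (-0.20 to 0.21). Rhbg lies at 1.59, far outside the band, and of the other members Oat lies just beyond it at 0.23.

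Differences between mice of the same genotype were not used to choose the members, so relations between them were tested. Log2 values were centred on the mean of each genotype over 12 arrays, and all 45 pairs were compared by permuting mice within a genotype. No pair passed after adjustment over the 45, and 2 had an unadjusted permutation p under 0.05. The median r was -0.04, and 16 pairs were positive. Within the 15 pairs of Wnt targets r ran from -0.39 to 0.50 with a median of -0.04, so the 6 Wnt targets did not rise and fall together detectably across these mice.

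The closest pair was Slc1a2 and Oat, with Pearson's r = 0.83 (permutation p = 0.00159, adjusted p = 0.0715) and Spearman's rho = 0.77 (permutation p = 0.00472, adjusted p = 0.212). This relation did not pass the adjustment over the 45 pairs. It had the same sign in both groups, with r = 0.86 in WT (exact permutation p = 0.0222, n = 6) and r = 0.75 in K289R (exact permutation p = 0.0819, n = 6). Without WT 1 and WT 6, the arrays farthest from the median of Slc1a2, r was 0.59. WT 1 is the array with the most skeletal muscle transcripts and 1 of the 2 with the highest acute phase means, and their part in the relation was not tested. With quantile normalization the pair passed (adjusted p = 0.0450), as it did without WT 2 (adjusted p = 0.0126). Over both groups Tbx3 had r = 0.65 to Oat (permutation p = 0.0505, adjusted p = 0.757; rho = 0.46, permutation p = 0.181) and r = 0.60 to Slc1a2 (permutation p = 0.0679, adjusted p = 0.763; rho = 0.38, permutation p = 0.240). Those relations dropped to r = 0.37 and 0.17 without WT 1 and WT 6, the extreme arrays of Oat and Slc1a2. Leaving out extremes tends to lower r by itself, so the drop does not show what these relations rest on. Within WT they were 0.84 to Oat (exact permutation p = 0.0417, n = 6) and 0.85 to Slc1a2 (exact permutation p = 0.00833, n = 6), and within K289R 0.19 (exact permutation p = 0.751, n = 6) and -0.16 (exact permutation p = 0.710, n = 6); the difference between the groups was not tested.

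**Figure D3:**
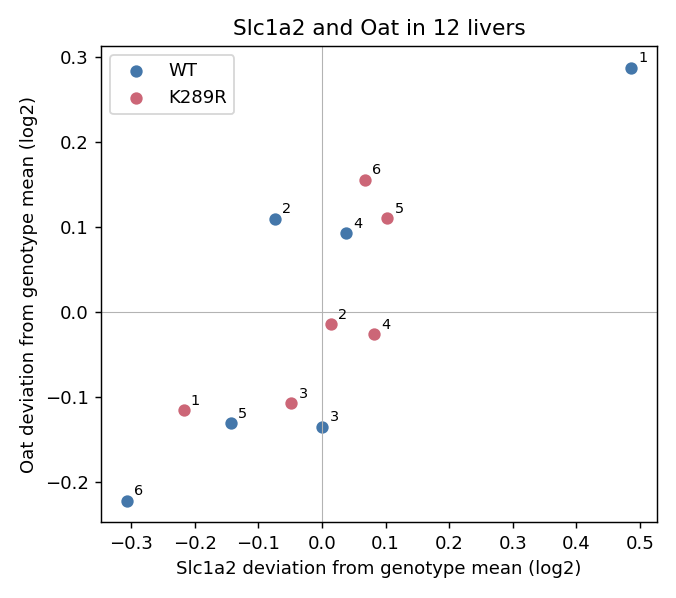
Deviation of each liver from its genotype mean, on the log2 scale, for Slc1a2 (horizontal) and Oat (vertical), with 6 WT arrays in blue, 6 K289R arrays in red and replicate numbers beside the points. WT 1 is highest and WT 6 lowest on both axes, and r is 0.83 with all 12 arrays and 0.59 without these.

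No relation of Rhbg to another member passed. Its r was 0.07 with Glul (permutation p = 0.840; rho = 0.07, permutation p = 0.838), and 2 of its 9 relations were positive. The largest was with Rnf43, at r = -0.63 (permutation p = 0.0395, adjusted p = 0.757; rho = -0.62, permutation p = 0.0440). It was -0.34 without WT 3 and WT 6, the arrays farthest from the Rhbg median. Within WT it was -0.83 (exact permutation p = 0.0361, n = 6) and within K289R -0.35 (exact permutation p = 0.628, n = 6), and the difference between the groups was not tested. Among 10660 other protein-coding genes above the array median, those most like Rhbg across the 12 centred arrays were Sdr42e1 (r = 0.95), Nt5dc1 (0.93), Rbks (0.92), Tspan15 (0.91) and Mccc1 (0.91). None of these 5 was called between genotypes, with log2 differences from 0.07 to 0.20. The genes most like Glul were Mug1 (r = 0.90), Bach2 (0.89), Naca (0.88), Cnn2 (0.88) and Tbc1d31 (0.85). With so many genes searched over 12 arrays, these r values describe likeness alone.

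**Figure D4:**
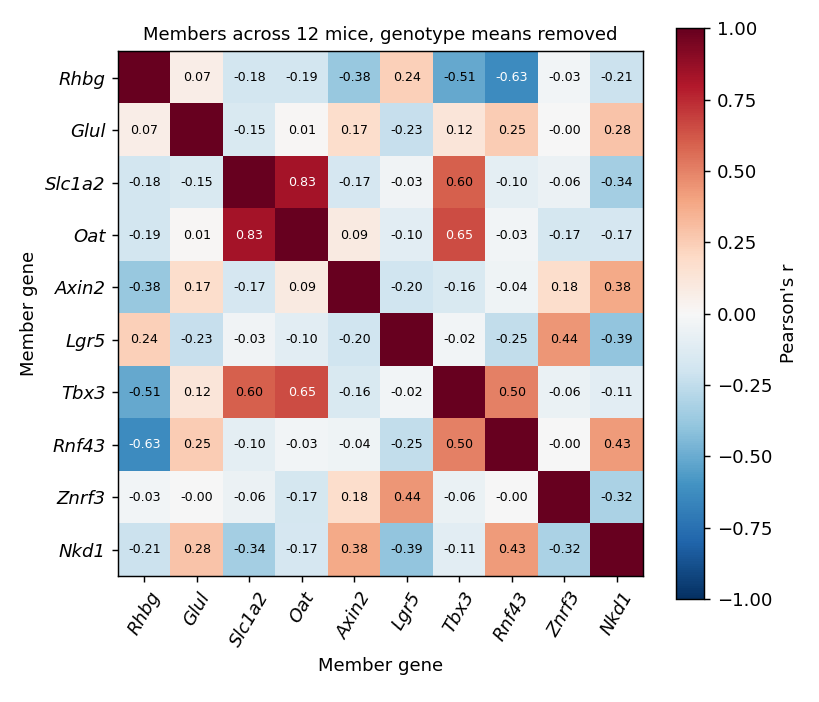
Pearson's r between each pair of members over 12 mice after removal of the genotype means (colour scale from -1 to 1, numbers in the cells). Slc1a2 and Oat (0.83) and their relations to Tbx3 (0.60 and 0.65) are the most positive cells, followed by Tbx3 and Rnf43 (0.50). Rhbg is mostly negative, down to -0.63 with Rnf43.

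The genes around the members were taken from 11 lists of the Wnt pathway, lobular zones and nitrogen metabolism, with 194 measured genes outside the members. Some genes stand in several lists and are not counted again in the 194. Of these, 7 rose and 1 fell (limma, adjusted p under 0.05), which is 4.12%. In all genes 0.481% rose and 0.0903% fell. The lists were drawn up with several of these calls already known, so this share is no independent evidence.

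Upstream of the members, no gene passed among 13 Wnt ligands, R-spondins and Wnt secretion factors, the last being Porcn and Wls. Of these 13, 4 were positive, and the median was -0.11, or -0.08 with equal array medians (all genes -0.01 and 0.03). A mean above the typical array median was found for 9 of the 13. The R-spondin Rspo3, made by central vein endothelium, spanned 42.4 to 48.7 in WT (median 47.7) and 48.9 to 58.6 in K289R (median 54.3). Its groups did not overlap, but its log2 difference of 0.21 did not pass (limma adjusted p = 0.174). The venous ligands Wnt2 and Wnt9b, singled out after their values were seen, had log2 differences of 0.07 and -0.05, and Wnt4 one of -0.22 (limma adjusted p = 0.250). Of 16 receptors and co-receptors none passed, and 13 had a mean above the typical array median. The R-spondin receptor Lgr4 spanned 204 to 249 in WT (median 236) and 252.7 to 389 in K289R (median 273), without overlap, at a log2 difference of 0.31 (limma adjusted p = 0.199). The Wnt co-receptor Lrp5 had a difference of 0.19 (limma adjusted p = 0.209).

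No secreted or intracellular inhibitor passed among 18, nor any transducer among 20, with medians of -0.04 and -0.03, which were -0.0045 and 0.0052 with equal array medians. Only 7 of the 18 inhibitors had a mean above the typical array median, against 18 of the 20 transducers. The inhibitors with the smallest p were Dkk3 (log2 difference -0.21) and Wif1 (-0.18), both with means under the array medians, and the transducers Dvl2 (-0.12) and Pygo2 (-0.15). Of 19 further Wnt targets 1 fell, the cell cycle gene Ccnd1, which many other signals also induce. Notum, Apcdd1, Nkd2, Dkk1, Dkk4 and Wif1 also stand among the inhibitors, and Lef1 among the transducers, so these lists are not separate. Over the 19 the median was -0.09, with 5 positive, and it was -0.05 with equal array medians. Only 9 of the 19 had a mean above the typical array median. Ccnd1 spanned 154 to 232 in WT (median 189) and 116 to 126 in K289R (median 119.8), with every K289R array below every WT array. It fell by 0.64 on the log2 scale (SE 0.08, limma adjusted p = 0.000907).

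Of 28 further pericentral genes none passed, and 23 had a positive difference, with a median of 0.08 (46.0% of all genes were positive). Without WT 1 and 3, 17 were positive and the median was 0.02. The oxysterol and bile acid enzyme Cyp27a1 had a difference of 0.25 (limma adjusted p = 0.133). The vasopressin receptor Avpr1a, a pericentral membrane protein like Rhbg, went the other way, from 257 ± 46.1 in WT to 183 ± 21.7 in K289R (SD, n = 6 each). Its log2 difference was -0.48 (limma adjusted p = 0.0735), and it passed in 5 of the 23 other settings, with the replicate block among them (adjusted p = 0.0488). Differences of the 19 periportal genes ran in both directions, from -0.60 to 2.08, with 12 positive and a median of 0.11. Of these 19 none fell and 3 rose: the steroid hydroxylase Cyp17a1 (4.24-fold, limma adjusted p = 9.33e-06), the aldehyde dehydrogenase Aldh1b1 (2.08-fold, limma adjusted p = 0.000158) and the glucose-6-phosphatase G6pc (1.83-fold, limma adjusted p = 0.0218). The G6pc call was lost without K289R 1 and 3 (limma adjusted p = 0.124), and also without WT 2, K289R 2, K289R 3 or K289R 5 alone, with trended robust variance (0.0774) and over all rows (0.0977).

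Around ammonium and glutamine, 4 of 21 genes of glutamine and glutamate metabolism rose, and none fell. Asns, which takes nitrogen from the glutamine that Glul makes, rose 14.8-fold (limma adjusted p = 5.32e-11). The aminotransferases Gpt2 and Got1 rose 1.56-fold (limma adjusted p = 0.00367) and 1.42-fold (limma adjusted p = 0.00536), and the CTP synthetase Ctps2, which also uses glutamine, rose 1.32-fold (limma adjusted p = 0.00998). The Ctps2 call was lost without all 4 arrays that stood apart (limma adjusted p = 0.0878). Of 26 transporters of ammonium, glutamate and related amino acids none passed, and the median was -0.05. The neutral amino acid carriers Slc1a4 and Slc38a2 had differences of 0.37 (limma adjusted p = 0.151) and 0.36 (limma adjusted p = 0.174), and Slc38a2 passed without WT 1 (limma adjusted p = 0.0134) and without WT 1 and 3 (limma adjusted p = 0.0422). Of 11 ornithine and proline genes none passed, nor did any of 11 urea cycle genes. In the urea cycle list 10 were positive (median 0.10), beside 46.0% of all genes. Without the 4 arrays that stood apart 8 were positive (median 0.09). The mitochondrial carbonic anhydrase Car5a had a difference of 0.34, and Slc25a20, a carnitine carrier that stands in that list without being a urea cycle gene, one of 0.22. Beside Oat, the antizyme inhibitor Azin1 and the dehydrogenase Aldh4a1 had differences of 0.12 and 0.18.

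**Figure D5:**
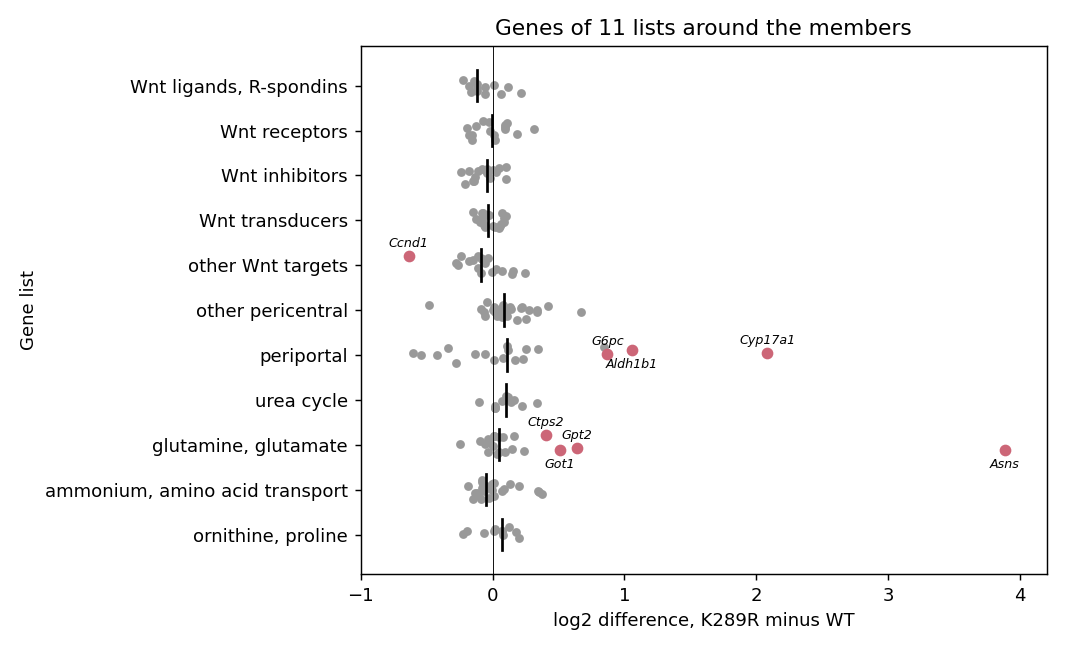
The log2 difference, K289R minus WT (horizontal axis), of each measured gene in 11 lists, with black ticks at the list medians and red points for genes that passed in limma (adjusted p under 0.05). Medians of the Wnt lists lie between -0.11 (ligands) and -0.00038 (receptors), with Ccnd1 at -0.64. Cyp17a1 (2.08) and Asns (3.89) lie far to the right.

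Markers of the cells that send or could dilute these signals were measured on the same arrays. Of 7 central vein endothelial markers none passed, and their summed intensity was 274 to 293 on WT and 282 to 305 on K289R arrays. Of 12 sinusoidal endothelial markers 11 were positive (46.0% of all genes were), none passed, and sums ran from 1821 to 2284 and from 2146 to 2485. Sums for Kupffer cells (11 markers) ran from 1070.4 to 1730.1 in WT and 1178 to 2237 in K289R, and those for stellate cells (11 markers) from 2122 to 2581 and 2249 to 2675. No marker of either list passed. Cholangiocyte sums (6 markers, 4 of them under the array median) ran from 179 to 206 and from 186 to 241, and those of 2 erythroid markers from 205 to 401 and 275 to 391. The part of these cell types in the Rhbg difference was not tested. The acinar sums (20 markers) were 407 to 488 in WT and 383 to 13364 in K289R. Rhbg measured 220.5 and 276 on K289R 1 and 3, within the 217 to 289.6 of the K289R arrays without that signal. Skeletal muscle sums (13 markers) ran from 365 to 2607 and 304 to 1005. Of 5 adipocyte markers 1 rose, Retn, from 33.4 ± 3.59 to 46.5 ± 6.76 (SD, n = 6 each, limma adjusted p = 0.0364), with sums of 106 to 134 and 105 to 173. No adipocyte marker passed without K289R 1 and 3 or without WT 1 and 3. Acute phase sums (21 genes) were 30395 to 50597 on WT and 30054 to 34242 on K289R arrays.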

How the data were processed

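The authors deposited 1 intensity per probe set and array on a linear scale, made with Affymetrix Expression Console, per the submitters' processing notes. How probes were summarized and arrays normalized is not given in the sources used here. Of 35556 rows, 21789 had 1 gene symbol, 1621 several and 12146 were not listed in the platform annotation. Rows with 1 symbol gave 19938 genes, named through RefSeq gene IDs (21698 matched), and a gene with several probe sets was represented by the one with the highest mean. After log2, K289R was compared with WT in limma 3.58.1 (R 4.3.3; lmFit, eBayes, no covariates, 12 arrays, two-sided). Adjusted p-values of genes are Benjamini-Hochberg over 19938 genes in the main fit. Each other setting was adjusted over the genes it kept, or over all 35556 rows in the fit of all rows. Means ± SD are of linear intensities. For arrays, their number limits the precision.

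Members, lists and settings were chosen with earlier results of these data known. Named were all members, in each list up to 4 genes that passed, otherwise the 2 with the smallest p, and the 5 genes most like Rhbg or Glul. Relations used 100000 two-sided permutations within genotype. On simulated data for K289R against WT with 19938 genes, limma recovered 90 of 100 genes changed 1.5-fold and 98 of 100 changed 2-fold, with 6 false calls. Simulated noise was independent between genes. Some real arrays share acinar, muscle or acute phase signals over many genes, so these figures may not hold for them. Other settings were equal medians, quantile normalization, dim genes left out, probe set means, trended robust variance, array weights, the replicate block, all rows and arrays left out. Replicate numbers name different mice. Slide and scan date were not used here.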

Additional observations from a re-analysis of the deposited data

Results flagged for a closer look

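In 2 of the 20 sets of 6 arrays examined (10 members in 2 groups), 1 array lay far from the rest by Dixon's criterion on log2 values. Chance alone gives this in about 1 of 20. The ratios were 0.65 for Rnf43 and 0.76 for Nkd1 against a critical 0.625, so Rnf43 was only just flagged. Rnf43 measured 99.1 on K289R 3, below the 116 to 127 of the other K289R arrays. K289R 3 is an array with acinar transcripts. Nkd1 measured 81.4 on K289R 4, above the 67.2 to 70.4 of the other K289R arrays. K289R 4 had the highest Kupffer cell list mean on the log2 scale, 7.36 against 6.46 to 6.83 on the other K289R arrays. It also had the highest acute phase mean of the K289R arrays, 9.41. The part of these transcripts in either value was not tested.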

How the results depend on the processing

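Rhbg was the member called under each of the 23 other settings, with log2 differences of 1.51 to 1.64. None of the 230 member values moved by more than 1 SD between mice. That limit is wide, because leaving out 1 array shifts a group mean little and several settings leave the difference unchanged. Little is therefore read from it. Rhbg was chosen with its difference on these arrays known, so its repeated calls are no independent evidence. The signs of Glul, Slc1a2, Axin2, Rnf43 and Nkd1, all near 0, changed in some settings, with ranges of -0.00053 to 0.10, -0.09 to 0.16, -0.09 to 0.01, -0.07 to 0.02 and -0.07 to 0.0040. The 114 genes called overall became 75 without K289R 1 and 3 and 65 without all 4 arrays that stood apart, settings chosen after seeing the data, and 81 to 159 when 1 array was left out. The 8 called list genes were 7 to 10 under leave-one-out. Related pairs numbered 1 with quantile normalization and 0 to 1 with 1 array left out. Of the 10 genes most like Rhbg and Glul, 5 were also found by Spearman's rho. With the replicate block 111 genes were called, 1 member and 9 list genes. Same-numbered arrays correlated at -0.23 to 0.23, and 1 of 6 WT arrays matched its own number best. No pairing by number was seen, but 6 such correlations cannot exclude one. Of those 111 genes 88 were shared with the fit without the block, and among the list genes Avpr1a was the one gained. Of 550 values of 24 named genes, 8 lost and 7 gained a call, and none changed sign.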

Other observations

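Nkd1 had exactly the same deposited intensity, 68.7, on 3 arrays (WT 5, K289R 2 and K289R 5). Exact ties between arrays occurred in 5784 of the 35556 rows (16.3%), and no other member had one.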
